A study of Mus musculus with 4 samples.

Results

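The genes of oxidative phosphorylation were described in single-cell RNA data of day 9 mouse embryoid bodies, aggregates in which embryonic stem cells differentiate into many cell types. Members were taken by gene symbol: every gene with the prefix mt-, and the nuclear genes Ndufa, Ndufb, Ndufc, Ndufs and Ndufv plus a number, Sdha to Sdhd, and all symbols beginning Uqcr, Cox4 to Cox8 or Atp5. The rule found 96 of the 20284 genes of the table, of which 13 are mitochondrial and 83 nuclear. One group of embryoid bodies came from control embryonic stem cells and the other from embryonic stem cells that had received a pulse of DUX, a transcription factor of the early mouse embryo. Each group had 2 libraries, which the submitters call biological replicates, named control 1 and 2 and DUX-pulsed 1 and 2 below. The stem cell line, the construct that carried DUX and the length of the pulse were not given in the sources used here. The whole embryoid body was dissociated, so a library mixes cell types, and fewer cells of a type and less RNA per cell cannot be told apart in its summed counts.

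Oxidative phosphorylation makes most of the ATP of a resting cell. Complexes I and II pass electrons from NADH and succinate to ubiquinone, complex III passes them to cytochrome c, complex IV passes them to oxygen, and complex V, the ATP synthase, uses the resulting proton gradient. Mitochondrial DNA encodes some core subunits of complexes I, III, IV and V, as long polycistronic transcripts from the heavy and the light strand, while nuclear genes encode the other subunits and the whole of complex II. Several complex IV subunits exist as a common and a tissue form, and heart muscle, which is rich in mitochondria, uses the tissue forms Cox6a2, Cox7a1 and Cox8b.

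Promoter sequences are shown for a common and a muscle form of complex IV subunits, because the forms of these subunits separated the cell classes. Windows from RefSeq (GRCm38.p6), running from 250 bases before to 50 bases after a gene's start, matched 65 of the 83 nuclear members in 70 windows. Printed are the bases before the start that lie outside the annotated gene, 5′ to 3′ on the gene's strand, for Cox6a1 at chr5:115348982-115349208 (minus strand), Cox8a at chr19:7217617-7217866 (minus strand) and Cox8b at chr7:140900447-140900696 (minus strand). Capitals mark a match to a searched motif.
Cox6a1: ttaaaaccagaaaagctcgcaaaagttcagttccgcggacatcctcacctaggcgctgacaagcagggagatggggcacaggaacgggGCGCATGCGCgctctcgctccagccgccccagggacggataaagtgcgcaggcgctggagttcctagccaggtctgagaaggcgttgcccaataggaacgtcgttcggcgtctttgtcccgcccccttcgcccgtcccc
Cox8a: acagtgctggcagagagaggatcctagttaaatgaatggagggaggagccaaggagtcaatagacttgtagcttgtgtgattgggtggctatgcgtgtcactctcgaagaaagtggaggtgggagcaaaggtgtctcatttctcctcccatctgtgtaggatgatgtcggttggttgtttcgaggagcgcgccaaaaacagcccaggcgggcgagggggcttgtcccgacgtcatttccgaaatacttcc
Cox8b: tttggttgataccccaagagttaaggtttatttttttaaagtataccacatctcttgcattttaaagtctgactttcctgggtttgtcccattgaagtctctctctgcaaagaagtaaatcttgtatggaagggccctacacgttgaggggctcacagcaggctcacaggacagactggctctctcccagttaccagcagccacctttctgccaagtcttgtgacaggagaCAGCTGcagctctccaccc
The Cox6a1 stretch held the NRF1 motif, starting 162 bases before the start, and a CCGGAAG match, the ETS core, began 16 bases before the start, in the part not printed. Cox8a had a CCGGAAG match that begins 5 bases before the start and crosses it, and another 33 bases after the start. Cox8b held the E-box CAGCTG 19 bases before the start, and a second match 17 bases after it, and had neither of the other motifs in its window. Across the 70 member windows, searched on both strands, the NRF1 motif was in 7.14% against 0.971% of all 32851 windows and CCGGAAG in 22.9% against 8.86%. The YY1 motif was in 5.71% against 0.633%, TCAAGGTCA (ERR) in 2.86% against 0.423%, CAGCTG in 8.57% against 16.3%, and the MEF2 motif in 0 of 70 against 3.19%. A match is a description of the letters only.

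The table held counts of unique molecular identifiers (UMIs), so that each count is 1 captured RNA molecule. In the control libraries 3219 and 3025 cells were listed, in the DUX-pulsed ones 2238 and 1608, none with fewer than 501 genes and none with more than 19.98% mitochondrial UMIs. Cells up to a mitochondrial limit of 10% of UMIs were kept, which left 2824, 2636, 2063 and 1353 cells with median depths between 27260 and 30402.5 UMIs. That limit cuts on a quantity described here, so mitochondrial results are also given for all deposited cells. The limit took away 12.3% and 12.9% in the control libraries, and 7.82% and 15.9% in the others. Pairs of libraries shared 8 cell barcodes in all. Levels below are CPM, the gene's count scaled to a library of fixed size.

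In the whole culture the mitochondrial share of UMIs was lower in DUX-pulsed libraries and the share of the nuclear members was higher. Mitochondrial genes took 6.44% and 6.66% of UMIs in the control libraries and 4.37% and 4.60% in the DUX-pulsed libraries, or 6.55% ± 0.160 against 4.49% ± 0.165 (SD, n = 2). Nuclear members took 2.24% and 1.96% against 2.45% and 2.35%. The ratio of mitochondrial to nuclear member UMIs was 2.87 and 3.40 in controls and 1.79 and 1.96 in DUX-pulsed libraries. The groups did not overlap in any of these 3 measures, but with 2 libraries against 2 a two-sided exact permutation test cannot go below its p of 0.333. Over all deposited cells the mitochondrial shares were 6.97% and 7.29% against 4.69% and 5.24%. Depth moved with the order: among cells with at least 20000 UMIs the shares were 6.49% and 6.73% against 4.40% and 4.58%, while among cells under 5000 UMIs they were 2.34% and 3.33% against 4.05% and 4.92%.

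The mitochondrial genes did not move as 1 block. Of the 13, 5 fell and 1 rose at an adjusted p of 0.05 in edgeR's quasi-likelihood test of the summed counts, DUX-pulsed against control, where 11.1% of all 16140 genes tested fell and 15.6% rose. The median log2 difference of the 13 was -0.45, against -0.00 for all genes. Both DUX-pulsed libraries lay below both controls for 8 of the 13, against 34.0% of all genes.

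The only mitochondrial subunit of complex III, mt-Cytb (chrM:14145-15288), was measured at 7120 and 7696 CPM in controls and 4076 and 4111 CPM in DUX-pulsed libraries, a log2 difference of -0.86 (SE 0.16, adjusted p = 0.0133). The complex I subunits mt-Nd2, at 5800 and 5216 against 3247 and 3037 CPM, and mt-Nd4, at 4341 and 4645 against 2485 and 2864 CPM, fell by 0.81 (SE 0.16, adjusted p = 0.0169) and 0.75 (SE 0.17, adjusted p = 0.0232). Another complex I subunit, mt-Nd3, had 751 and 534 against 363 and 368 CPM, a log2 difference of -0.81 (SE 0.20, adjusted p = 0.0320). The proton channel subunit of complex V, mt-Atp6, had 14055 and 11575 against 8614 and 7225 CPM, a log2 difference of -0.69 (SE 0.19, adjusted p = 0.0456). In all 5 of these genes both DUX-pulsed libraries lay below both controls, which adds nothing to the test, since it picked them by the same values.

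Leaving out 1 library gave 3 mitochondrial genes lower without control 1 or DUX-pulsed 2, where 6.31% and 10.9% of all genes were called lower. It gave 4 without control 2 or DUX-pulsed 1, where 5.55% and 13.7% were. The mt-Atp6 call was lost without control 1, without DUX-pulsed 2 or with no filter on low counts, the mt-Nd2 call without DUX-pulsed 2, the mt-Nd3 call without control 1, and the mt-Nd4 call without control 2 or without DUX-pulsed 1. When cells were held to 1000 or more genes and a mitochondrial limit of 5%, none of the 13 passed edgeR's test. There 7.90% of all genes rose and 6.15% fell. The median log2 difference of the 13 was -0.08, and the shares were 3.67% and 3.65% against 3.26% and 3.27%. That limit cuts on the share itself and left 644 and 523 control cells against 1320 and 694 DUX-pulsed cells. The smaller difference there therefore cannot be read as a check of the main one.

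Of the 3 mitochondrial genes for the catalytic core of complex IV, none was called in edgeR's test. mt-Co1 (chrM:5328-6872) had 6784 and 7519 CPM in controls and 6778 and 8444 CPM in DUX-pulsed libraries, with a log2 difference of 0.09 (SE 0.19, adjusted p = 0.755), and the groups overlapped. Its portion of all mitochondrial UMIs was 10.4% and 11.9% in controls and 14.9% and 18.3% in DUX-pulsed libraries, without overlap. mt-Co2 had 10159 and 9311 against 8056 and 7606 CPM and mt-Co3 had 11391 and 11773 against 8296 and 8699 CPM, with log2 differences of -0.31 and -0.45 and adjusted p-values of 0.208 and 0.0931. In mt-Co2 and mt-Co3 both DUX-pulsed libraries lay below both controls, as in the genes that fell. For mt-Nd5, mt-Nd4l and mt-Atp8 the libraries of the 2 groups overlapped, and mt-Nd1, at 3591 and 4315 against 2373 and 3044 CPM, had an adjusted p of 0.0957. mt-Atp8 had 148 and 58.2 against 146 and 58.6 CPM, and mt-Nd4l had 294 and 189 against 313 and 165 CPM. In both genes the first library of each group was the higher. mt-Atp8 shares 43 bases with mt-Atp6 and mt-Nd4l shares 7 with mt-Nd4 on the same strand, so the division of their counts is uncertain.

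The mitochondrial gene that rose was mt-Nd6 (chrM:13552-14070), a complex I subunit and the only member on the light strand. It had 45.8 and 46.1 CPM in controls and 98.9 and 115 CPM in DUX-pulsed libraries, 2.33-fold higher (log2 difference 1.22, SE 0.15, adjusted p = 0.00426). It overlaps mt-Nd5, on the opposite strand, by 14 bases, and mt-Nd5 had 546 and 411 against 553 and 447 CPM. The strand setting of the counting was not given in the sources used here.

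**Figure D1:**
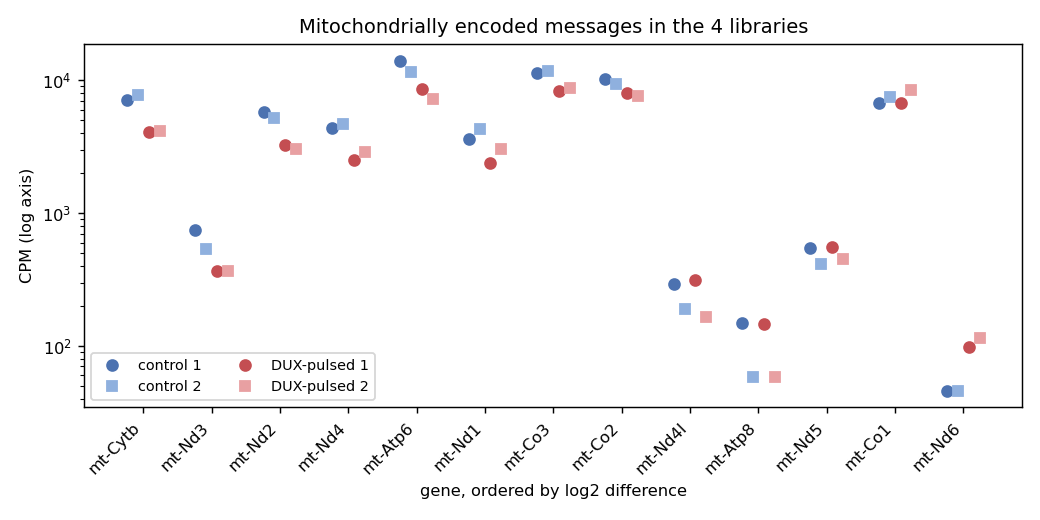
CPM of the 13 mitochondrial genes in the whole culture (vertical log axis), with 1 point for each of the 4 libraries and genes ordered by log2 difference. The genes from mt-Cytb to mt-Co2 have both DUX-pulsed libraries below both controls, mt-Co1 overlaps, and mt-Nd6 is higher in both DUX-pulsed libraries.

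Of the nuclear members, 82 of 83 had counts enough for the test (Cox8c, a testis form with 12 UMIs in all, did not). Of these, 11 rose and 0 fell in edgeR's test, where 15.6% of all genes rose and 11.1% fell, so the share that rose was near the background. At an unadjusted p under 0.05, 2 nuclear members were lower (Cox4i2 and Cox7b2, named after their values were seen). DESeq2 called 2 lower, against 12.7% of all genes. With a replicate block more nuclear members and more of all genes were called in both directions, as given at the end. Without control 2, 7 rose, where 9.11% of all genes did. The median log2 difference was 0.23, and both DUX-pulsed libraries lay above both controls for 41 of 82 members (33.6% of all genes) and below for 9 (34.0%). That median was 0.10 without control 2 and 0.41 without control 1.

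In complex I, the entry point of NADH electrons, 3 of 37 nuclear subunits rose. The accessory subunit Ndufs4 (chr13:114287795-114388258) had 102 and 84.5 CPM in controls and 199 and 167 CPM in DUX-pulsed libraries (log2 difference 0.97, SE 0.18, adjusted p = 0.0118). Ndufs6, which carries a zinc site, had 134 and 104 against 219 and 188 CPM (0.77, SE 0.19, adjusted p = 0.0286). Ndufa4l2, a hypoxia-regulated relative of Ndufa4 that the rule places here by name, had 17.4 and 8.51 against 37.7 and 55.3 CPM (1.84, SE 0.37, adjusted p = 0.0163). The other 34 lay between -0.27 and 0.60, with Ndufv2, a core iron-sulfur subunit, the highest of them at 195 and 149 against 288 and 233 CPM (adjusted p = 0.0765).

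Complex II, which is also an enzyme of the citric acid cycle, had its catalytic pair raised and its membrane anchors not called. The flavoprotein Sdha (chr13:74322254-74350280) had 46.1 and 45.8 CPM in controls and 103 and 116 CPM in DUX-pulsed libraries, 2.39-fold higher (log2 1.26, SE 0.15, adjusted p = 0.00369). The iron-sulfur subunit Sdhb (chr4:140961203-140979193) had 54.0 and 53.6 against 127 and 128 CPM, 2.37-fold higher (log2 1.24, SE 0.14, adjusted p = 0.00339). The anchors Sdhc, at 54.5 and 61.9 against 72.05 and 98.1 CPM, and Sdhd, at 121 and 168 against 147 and 185 CPM, had adjusted p-values of 0.0871 and 0.537.

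In complex III 1 of 8 nuclear subunits rose, the Rieske iron-sulfur protein Uqcrfs1 (chr13:30540308-30545362), from 83.4 and 76.7 to 227 and 231 CPM (2.86-fold, log2 1.52, SE 0.14, adjusted p = 0.00264). The other 7 lay between -0.11 and 0.39, among them Uqcrh, at 528 and 462 against 610 and 687 CPM, and the core protein Uqcrc2, at 169 and 156 against 200 and 208 CPM. Complex V had 1 of 16 raised, Atp5g2, which encodes the c-ring subunit, at 472 and 461 against 718 and 840 CPM (log2 0.74, SE 0.16, adjusted p = 0.0204). The next by p, Atp5c1, the gamma subunit of the rotor, had 413 and 341 against 567 and 532 CPM (adjusted p = 0.0583). Atp5d, the delta subunit, had 450.3 and 409 against 604 and 518 CPM (adjusted p = 0.131). The Atp5g2 paralogs Atp5g1 and Atp5g3 make the same mature protein and had adjusted p-values of 0.755 and 0.166. The Atp5g2 call was lost without control 1, without control 2 or without DUX-pulsed 2.

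Complex IV had 4 of 17 tested nuclear subunits raised. Cox6a2 (chr7:128205435-128206387), the heart and skeletal muscle form of subunit VIa, had 8.80 and 6.39 CPM in controls and 62.4 and 97.4 CPM in DUX-pulsed libraries, 10.5-fold higher (log2 3.39, SE 0.29, adjusted p = 0.00251). Cox8b, the muscle form of subunit VIII, was scarce at 0.283 and 0.0972 against 2.12 and 2.89 CPM (log2 3.69, SE 0.53, adjusted p = 0.00631). Cox7c had 302 and 247 against 750 and 705 CPM (log2 1.41, SE 0.17, adjusted p = 0.00411), and Cox7a2l, which takes part in respiratory supercomplexes, had 248 and 211 against 434 and 424 CPM (log2 0.90, SE 0.16, adjusted p = 0.0106). The common forms Cox6a1, at 290 and 248 against 212 and 204 CPM, and Cox8a, at 627 and 475 against 722 and 779 CPM, were not called, with adjusted p-values of 0.128 and 0.131. The tissue form Cox4i2 had 151 and 189 against 74.2 and 125 CPM (log2 -0.77, SE 0.27, adjusted p = 0.0878). Cox6b1, Cox7a2 and Cox7b, common forms of their subunits, had log2 differences of 0.31, 0.36 and 0.17, none called, and Ndufa4, which the rule places in complex I, had -0.15. The tissue forms Cox7a1 and Cox6b2 had 0.05 and 0.30, neither called. The scarce Cox7b2 had 1.51 and 0.839 against 0.431 and 0.138 CPM (adjusted p = 0.0527).

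**Figure D2:**
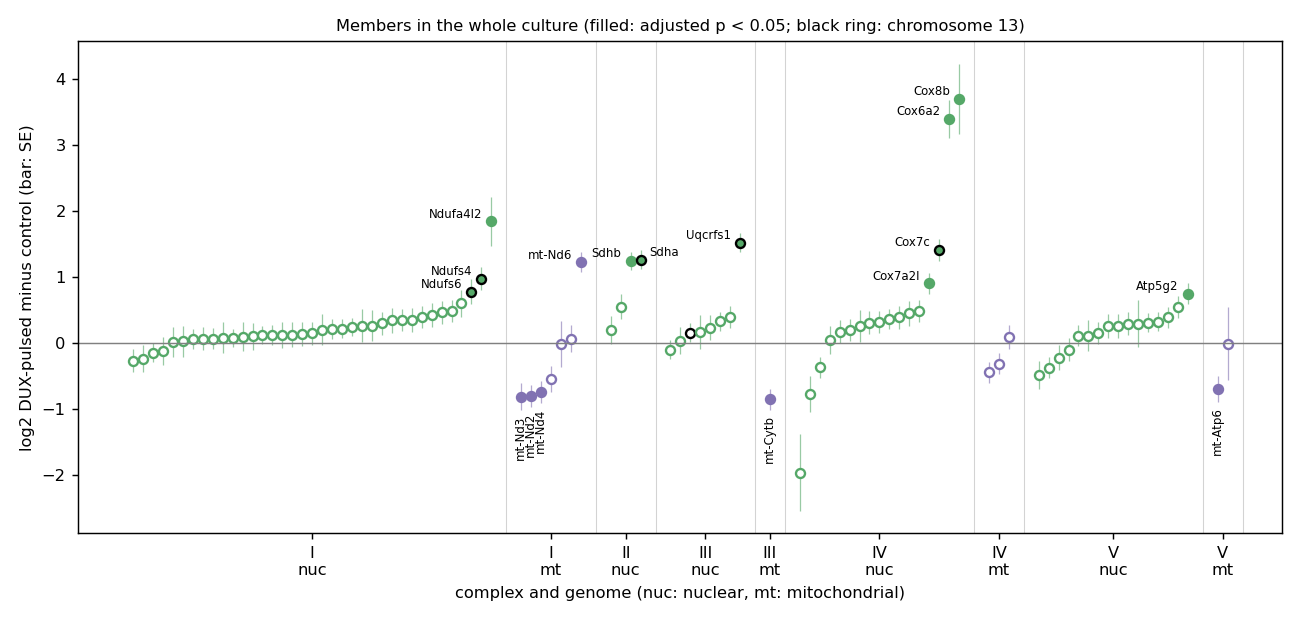
Log2 difference, DUX-pulsed minus control, of the 95 tested members in the whole culture, ordered within each complex and genome, with SE bars. Filled points passed edgeR's test, black rings mark genes on chromosome 13, and 5 mitochondrial genes lie among the filled points below 0.

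Where a nuclear member lay on the chromosomes moved with its difference. Of the 11 that rose, 5 (Ndufs4, Ndufs6, Sdha, Uqcrfs1 and Cox7c) are on chromosome 13, which holds 6 of the 83 members. The 621 other genes tested on chromosome 13 had a median log2 difference of 1.003 and 364 of them rose, whereas the medians of the other autosomes and X lay between -0.23 (chromosome 5) and 0.23 (chromosome 4). For each member the median over the 50 nearest tested genes that are no members was taken, by their start positions in GENCODE vM21. It was 1.03 around Uqcrfs1, 1.09 around Sdha, 1.21 around Cox7c, 1.07 around Ndufs6 and 0.96 around Ndufs4, and 0.72 around Sdhb on chromosome 4. Uqcrb (chr13:66900617-66905378), a small subunit of complex III, is the sixth member on that chromosome and had 298 and 290 against 313 and 341 CPM (log2 0.15, SE 0.15, adjusted p = 0.470), with a neighbour median of 0.61.

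At the other end, Atp5j2 and Cox6a1 on chromosome 5 and Atp5j on chromosome 16 had neighbour medians of -0.52, -0.34 and -0.39 and log2 differences of their own of -0.49, -0.37 and -0.38, none of which was called. Among the 70 members whose neighbours had a median within 0.3 of 0, 5 rose, against 15.6% of all genes. They were Ndufa4l2, Cox6a2, Cox7a2l, Cox8b and Atp5g2. The part of such regional shifts in the differences of single members was not tested.

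**Figure D3:**
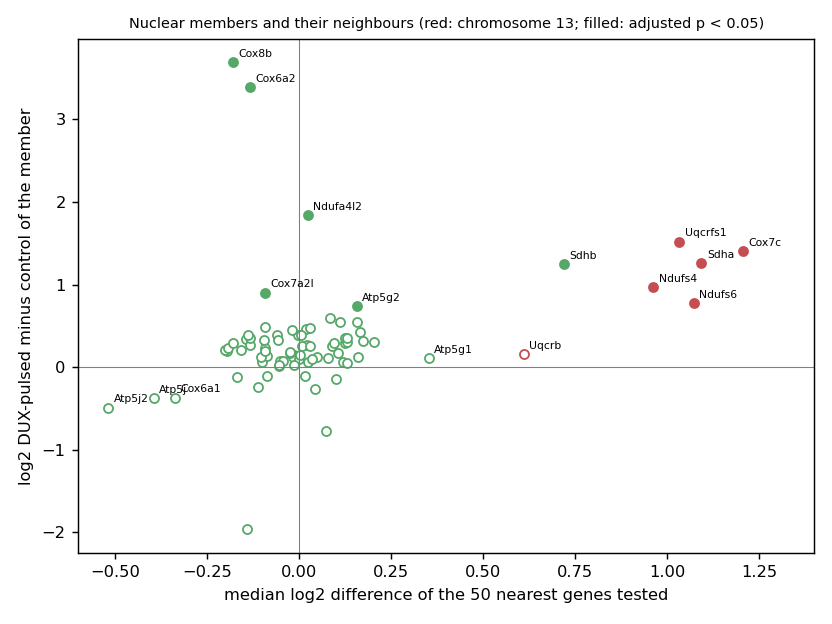
Log2 difference of each nuclear member (vertical) against the median of its 50 nearest genes that are no members (horizontal). Filled points passed edgeR's test, and the chromosome 13 members, in red, sit to the right with neighbour medians from 0.61 to 1.21.

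To see the members by cell type, the kept cells were clustered with the member genes left out of the variable genes. Of 26 clusters, 13 took a name from marker genes and formed 9 classes, called "-like" here. Cardiomyocyte-like cells (clusters 3 and 4, led by Tnni3 and Myl2, and cluster 20, led by Tdgf1 and Ankrd1) numbered 138 and 91 in controls and 410 and 281 in DUX-pulsed libraries. The nuclear members were highest in these cells. They took 3.77% and 3.43% of UMIs in control and 4.24% and 3.90% in DUX-pulsed cardiomyocyte-like cells, without overlap between the groups. In cluster 3 (32 and 8 control cells) they took 4.06% and 4.02% against 4.32% and 3.96%, so there the groups overlapped. In cluster 4 they took 3.41% and 2.96% against 4.08% and 3.79%. In cluster 20 (9 and 4 DUX-pulsed cells) they took 3.81% and 3.51% against 4.64% and 3.88%. In mesenchyme- and fibroblast-like cells (clusters 0 and 12) they took 2.24% and 2.04% against 2.197% and 1.99%, in endothelium-like cells 2.07% and 1.79% against 1.98% and 1.74%, and in erythroid-like cells 1.88% and 1.66% against 1.62% and 1.63%. Over the 9 classes, counting libraries with at least 20 cells, 69 of the 82 tested nuclear members had their highest mean CPM in cardiomyocyte-like cells, against 10.7% of all genes tested. Cells were clustered on the same libraries, so this is a description. The visceral and primitive endoderm-like, pluripotency-like, hepatocyte-like and trophoblast-like means rest on libraries of 1 group, and Cox6a2 itself was among the 10 leading genes of clusters 3 and 4.

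The mitochondrial share differed between classes as well, and is given within each group, because some classes were nearly all of 1 group. Within controls it was 6.64% and 6.99% in visceral and primitive endoderm-like cells (1 and 2 cells in the DUX-pulsed libraries) and 6.54% and 6.81% in hepatocyte-like cells, so these classes overlapped. Erythroid-like cells were low in both groups, at 1.998% and 1.20% in controls and 2.02% and 2.36% in DUX-pulsed libraries. The ratio of mitochondrial to nuclear member UMIs was 1.31 and 1.49 against 1.05 and 1.28 in cardiomyocyte-like cells, and 2.50 and 2.57 against 1.55 and 1.70 in mesenchyme- and fibroblast-like cells.

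Between the groups, the lower mitochondrial share of DUX-pulsed cells was present in most but not all classes. In mesenchyme- and fibroblast-like cells it was 5.60% and 5.24% against 3.41% and 3.38%, in hepatocyte-like cells 6.54% and 6.81% against 3.79% and 3.41% (8 to 32 cells a library), and in endothelium-like cells 5.56% and 5.18% against 3.64% and 4.03%. In cardiomyocyte-like cells it was 4.93% and 5.11% against 4.47% and 4.98%, so the groups overlapped. Among the 14 classes and unnamed clusters with at least 5 cells in every library, both DUX-pulsed libraries lay below both controls in 9, overlapped in 3 and lay above in 2, the erythroid-like cells and a cluster of low depth (cluster 19, led by Lars2, median 1063 UMIs). The same count for nuclear members was 4 below, 9 overlapping and 1 above, the last being cardiomyocyte-like cells.

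**Figure D4:**
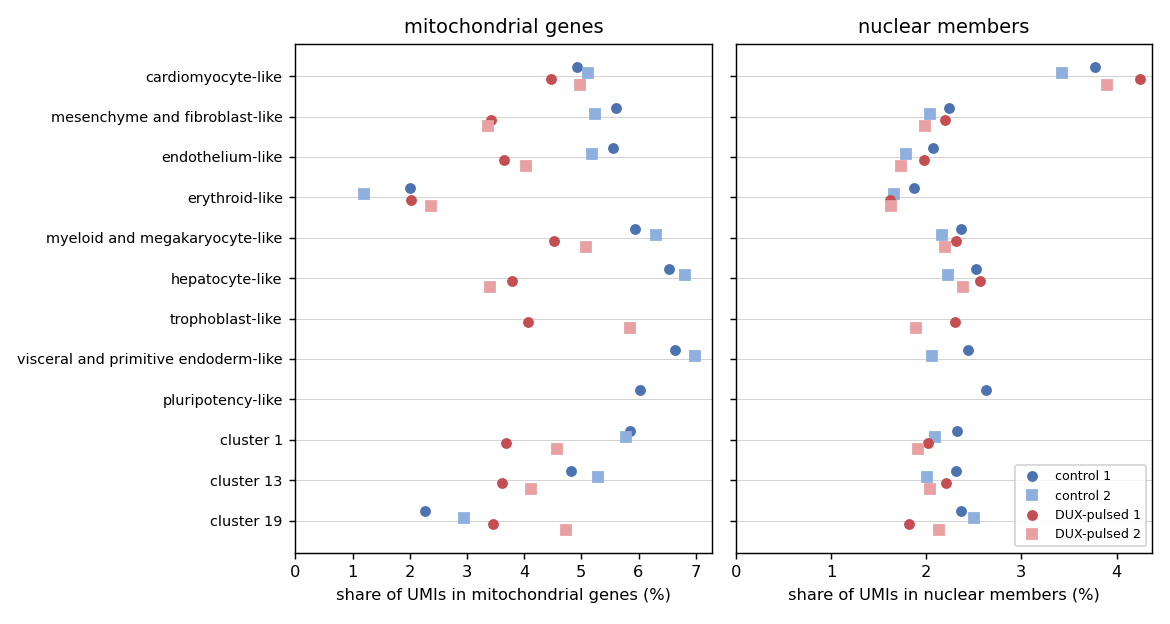
Share of UMIs in mitochondrial genes (left) and nuclear members (right), in percent, by class, with 1 point per library of at least 5 cells. Cardiomyocyte-like cells have nuclear shares from 3.43% to 4.24%, to the right of all other classes, while their mitochondrial shares overlap between the groups.

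The higher nuclear share of the DUX-pulsed culture was not seen without the cardiomyocyte-like cells. There, nuclear members took 2.19% and 1.92% of UMIs in controls and 2.13% and 1.93% in DUX-pulsed libraries, and their median log2 difference was 0.01 in place of 0.23. In that fit 9 nuclear members rose, against 13.5% of all genes, and 1 fell, against 9.41%. The 9 were Sdha, Sdhb, Uqcrfs1, Cox7c, Ndufs4, Cox6a2, Ndufa4l2, Atp5g2 and Cox7a2l, and the 1 was Cox4i2 (log2 -1.52, SE 0.31, adjusted p = 0.0221). Cox6a2 was nearly absent from the other classes, as given below, so its rise in this fit rests on few counts. The mitochondrial shares were 6.48% and 6.71% against 4.35% and 4.50%, 5 genes fell and mt-Nd6 rose.

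Within cardiomyocyte-like cells, 16 of 81 tested nuclear members rose and 0 fell in edgeR's test of summed counts, against 9.15% and 8.19% of all genes, and 3 were lower at an unadjusted p under 0.05. The number that rose was 10 without control 1, 5 without control 2, 7 without DUX-pulsed 1 and 12 without DUX-pulsed 2, where 6.21%, 5.16%, 7.0% and 6.43% of all genes rose. Beside the members already raised in the culture, they included Cox4i1, the common form of subunit IV, at 1115 and 1042 CPM in controls and 1753 and 1544 CPM in DUX-pulsed cells (log2 0.61, SE 0.21, adjusted p = 0.0491). Ndufv2 had 297 and 223 against 533 and 394 CPM (log2 0.83, SE 0.22, adjusted p = 0.0127), and the muscle forms Cox6a2 and Cox7a1 rose by 0.86 (SE 0.21, adjusted p = 0.00706) and 0.82 (SE 0.25, adjusted p = 0.0264). Of the mitochondrial genes, mt-Co1 rose, from 4616 and 5270 to 7547 and 9638 CPM (log2 0.80, SE 0.23, adjusted p = 0.0206), and mt-Nd3 fell, from 675 and 526 to 372 and 368 CPM (log2 -0.70, SE 0.21, adjusted p = 0.0260). The mt-Co1 call was lost without either DUX-pulsed library, and the mt-Nd3 call without either of these or control 1.

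Different clusters held most of this class in the groups. The Tdgf1-led cluster 20 had most of the control cells, and clusters 3 and 4 most of the DUX-pulsed cells. Without cluster 20, which left 50 and 18 control cells, 10 nuclear members rose and 0 fell in edgeR's test, against 4.17% and 4.26% of all genes, with 0 lower at an unadjusted p under 0.05, and mt-Co1 and mt-Nd5 rose. The 420 other genes of chromosome 13 had a median log2 difference of 0.96 in cardiomyocyte-like cells.

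In mesenchyme- and fibroblast-like cells 6 of 13 mitochondrial genes fell, where 1.76% of all genes fell: mt-Nd1, mt-Nd2, mt-Nd3, mt-Nd4, mt-Cytb and mt-Atp6. mt-Cytb had 5041 and 5226 CPM in controls and 3041 and 2852 CPM in DUX-pulsed cells (log2 -0.80, SE 0.14, adjusted p = 0.00904). The number that fell was 0 without control 1 and 3 without control 2, where 0.682% and 0.928% of all genes fell. Of 79 nuclear members 3 rose, Sdhb, Uqcrfs1 and Cox7c, against 3.0% of all genes, and 1 rose without control 1 or without control 2, where 0.464% and 1.72% of all genes did. Their neighbours were shifted here as well, with a median of 0.84 over 400 genes of chromosome 13 and 0.74 over 31 neighbours of Sdhb.

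The 2 other groups of cells that could be tested are unnamed clusters. In cluster 1, led by Foxe1 and Sox2, 4 of 79 nuclear members rose (Sdha, Sdhb, Uqcrfs1 and Cox7c, against 4.10% of all genes) and 4 fell (Cox6a1, Atp5j2, Atp5j and Atp5o.1, against 2.26%), and mt-Nd2, mt-Nd3 and mt-Cytb fell. Without control 1 those 3 numbers were 1, 0 and 0, and without control 2 they were 1, 0 and 1, where 1.74% and 1.32% of all genes rose and 0.983% and 0.879% fell. In cluster 13, led by Rgs5 and Lhx2, 5 nuclear members rose (Ndufs4, Sdha, Sdhb, Uqcrfs1 and Cox7c, against 3.36%), and 2 rose without control 2, where 2.25% of all genes did. There 0 nuclear and 0 mitochondrial members fell in edgeR's test, against 2.18% of all genes, with 5 and 3 lower at an unadjusted p under 0.05. Sdhb, Uqcrfs1 and Cox7c thus rose in all 4 groups of cells tested.

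The change in cardiomyocyte-like cells was set against that in mesenchyme- and fibroblast-like cells in 1 edgeR fit with the library as a block. The difference of the 2 log2 differences passed for 10 of 92 members, against 9.83% of all genes. Over both genomes together the number was thus near the background, but the genomes differed. Of the 13 mitochondrial genes 6 passed: mt-Co1, mt-Co3, mt-Nd4, mt-Nd5, mt-Cytb and mt-Atp6. These 6 are read from shared long transcripts, so they are not 6 separate results. The nuclear members that passed were only Ndufs1, Sdha, Uqcrc1 and Atp5b, a smaller share than the 9.83% of all genes. All 10 were positive, and the share of positive differences among all genes that passed was not counted. mt-Co3 had 6840 and 7013 against 8352 and 8936 CPM in cardiomyocyte-like cells and 9215 and 8366 against 6696 and 6485 CPM in mesenchyme- and fibroblast-like cells, a difference of 0.76 (SE 0.14, adjusted p = 0.00311). Neither change passed the test by itself. Without cluster 20, 8 of 92 members passed, against 4.06% of all genes. They were the same 6 mitochondrial genes, mt-Nd2 and Cox5a.

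Tissue forms of complex IV subunits separated the classes. CPM over all UMIs of the class is used for these levels. Cox6a2 had 269 and 228 CPM in control and 390 and 459 CPM in DUX-pulsed cardiomyocyte-like cells. Elsewhere its highest value was 13.2 CPM, from 2 UMIs in the low-depth cluster 19, and its median over the other classes and libraries was 0. Of the UMIs of Cox6a1 and Cox6a2 together, Cox6a2 made up 40.4% and 33.0% in control and 58.4% and 59.5% in DUX-pulsed cardiomyocyte-like cells. Most control cells of this class were in cluster 20 and most DUX-pulsed cells in clusters 3 and 4. The part of that mix in the group differences of these forms was not tested. Cox8b had 8.47 and 3.56 against 13.3 and 13.6 CPM there, and at most 0.265 CPM, from 1 UMI, in the other classes and clusters. Cox7a1 had 94.8 and 61.5 against 149 and 110 CPM in cardiomyocyte-like cells, but also 58.7 and 44.1 CPM in the controls of the unnamed cluster 21, led by Rarres1 and Ly6h.

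Cox4i2, a form of subunit IV known from lung and from low oxygen, was not particular to muscle. It had 249 and 232 against 246 and 307 CPM in cardiomyocyte-like cells. Its level was as high in controls of cluster 21, at 292 and 342 CPM, where 45.9 and 61.2 CPM were measured in 7 and 12 DUX-pulsed cells. Cluster 21 held 488 and 471 control cells. Cox6b2, known as a testis form of subunit VIb, was highest in erythroid-like cells, at 642 and 544 CPM in controls and 432 and 441 CPM in DUX-pulsed libraries (19 to 57 cells a library). There it made up 65.9% and 65.1% against 61.3% and 55.3% of the UMIs of Cox6b1 and Cox6b2 together, and its highest value in any other class was 71.0 CPM.

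**Figure D5:**
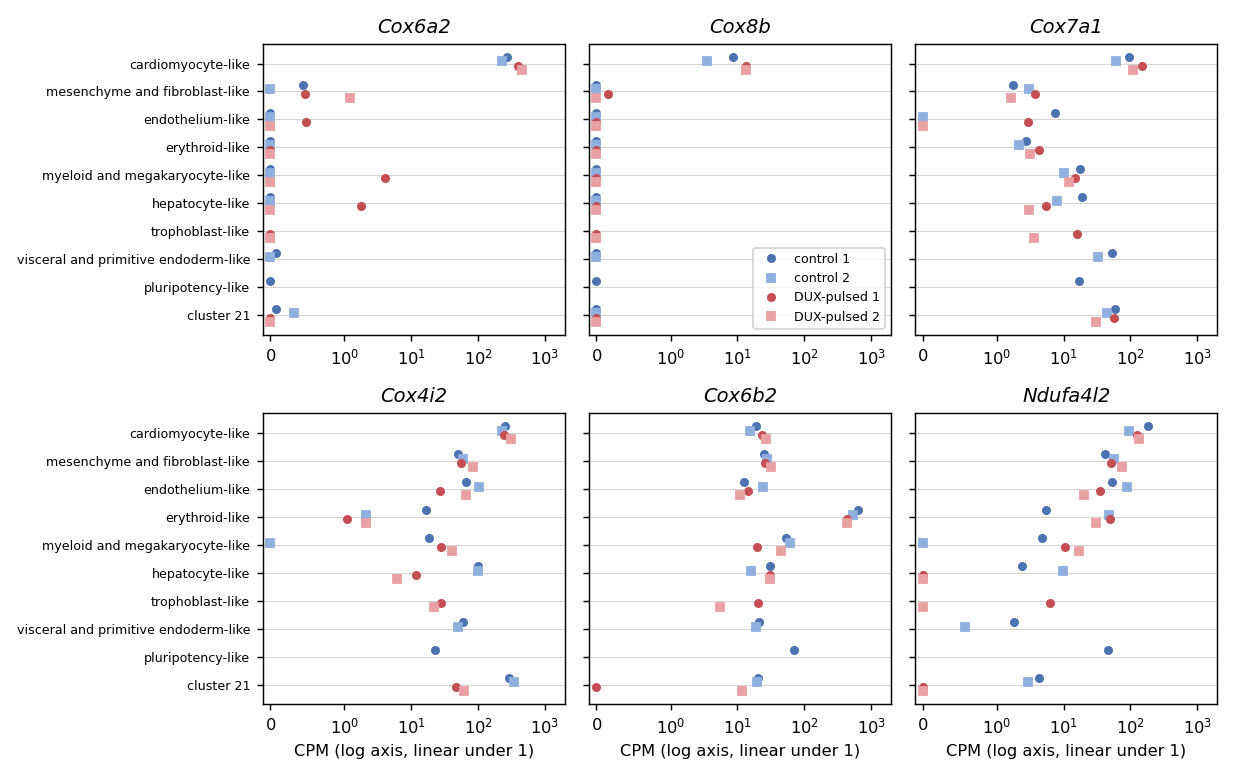
CPM of 5 tissue forms of complex IV subunits and of Ndufa4l2 by class (horizontal log axis, linear under 1), with 1 point per library of at least 5 cells. Cox6a2 and Cox8b lie far to the right in cardiomyocyte-like cells, Cox6b2 in erythroid-like cells, and Cox4i2 in both cardiomyocyte-like cells and cluster 21.

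Other genes of mitochondrial function, in 11 lists, were read in the same whole-culture fit, to be set against 15.6% of all genes higher and 11.1% lower. The assembly factors of the complexes had 1 of 44 higher and 2 lower. Ttc19, an assembly factor of complex III, had 59.0 and 52.2 against 33.5 and 29.5 CPM (log2 -0.82, adjusted p = 0.0128), and Ndufaf6 had 41.5 and 34.3 against 26.8 and 22.1 CPM (log2 -0.63, adjusted p = 0.0430). Of subunits and carriers outside the rule, 1 of 11 rose: Atpif1, the inhibitor of the ATP synthase, at 352 and 283 against 575 and 521 CPM (log2 0.79, adjusted p = 0.0222). Atpif1 lies on chromosome 4. Cycs, cytochrome c, had 207 and 163 against 265 and 231 CPM and an adjusted p of 0.134.

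Among 31 genes that maintain mitochondrial DNA and RNA, 2 rose and 3 fell. Polg, the catalytic subunit of the mitochondrial DNA polymerase, fell from 147 and 149 to 50.4 and 40.2 CPM (log2 -1.71, SE 0.17, adjusted p = 0.00267), and Ptcd2 rose from 21.6 and 17.2 to 39.5 and 31.3 CPM. Ptcd2 lies on chromosome 13, where most tested genes rose. Of 15 regulators of mitochondrial biogenesis, 4 rose and 1 fell. Ppargc1a, a coactivator of mitochondrial gene programs, had 1.87 and 3.18 against 8.73 and 16.01 CPM (log2 2.29, SE 0.40, adjusted p = 0.0104), and its relative Ppargc1b had 3.25 and 2.97 against 8.73 and 12.4 CPM (log2 1.76, SE 0.24, adjusted p = 0.00566).

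The lists around the chain were short and differed. Their median log2 differences were 0.30 (citric acid cycle), 0.04 (fatty acid oxidation), 0.45 (ATP export and energy transfer) and 0.07 (mitochondrial dynamics). The citric acid cycle had 4 of 17 higher, with Idh3a at 43.2 and 41.9 against 82.8 and 82.0 CPM and Dlat at 31.7 and 32.1 against 49.6 and 51.6 CPM. Fatty acid oxidation had 3 of 16 higher and 1 lower, with Eci2 at 31.5 and 29.3 against 66.6 and 59.4 CPM and Cpt1a, the entry enzyme, at 1.01 and 0.863 against 2.70 and 2.15 CPM. ATP export and energy transfer had 5 of 12 higher, with the creatine kinases Ckb, at 108 and 66.8 against 272 and 193 CPM, and Ckm, at 0.0629 and 0.0486 against 0.431 and 0.330 CPM. Mitochondrial dynamics had 3 of 22 higher, with Mfn2 at 5.93 and 6.11 against 12.8 and 17.3 CPM and Minos1 at 103 and 78.0 against 202 and 172 CPM. Mfn2 and Minos1 lie on chromosome 4, and Eci2 lies on chromosome 13, where most tested genes rose.

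The mitochondrial ribosome had 5 of 78 higher and 1 lower, and all 5 that rose are on chromosome 13, with Mrps27 at 6.57 and 6.28 against 16.2 and 18.5 CPM and Mrpl32 at 40.2 and 35.7 against 92.1 and 78.5 CPM. The cytosolic ribosome, whose short abundant messages resemble those of many members, had 16 of 85 higher and a median log2 difference of 0.40, with Rplp2 at 789 and 682 against 1790 and 1917 CPM and Rps23 at 1136 and 887 against 2793 and 2875 CPM. Of the 16, only Rps23 lies on chromosome 13. A list of 4 nuclear RNAs had 1 higher and 0 lower, with a median log2 difference of -0.02. Malat1 rose from 8076 and 7491 to 12011 and 11767 CPM (log2 0.61, SE 0.16, adjusted p = 0.0401), and Kcnq1ot1 had 817 and 846 against 730 and 708 CPM. Malat1, but not this list as a set, thus moved with the lower mitochondrial share, and its part in that difference was not tested.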

How the data were processed

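Droplet single-cell libraries of 4 embryoid body samples were analysed from the counts deposited by the authors, whole numbers of UMIs per gene and cell that were not normalized. The submitters' processing notes name Cell Ranger 2.2.0, STAR and mm10, and the counting options were not given in the sources used here. The start of each cell's column name gave its group and the suffix its replicate number, and 0 columns belonged to no sample. Cells of 500 or more genes and up to 10% mitochondrial UMIs were kept, and doublets were not removed. Cells were scaled to 10000 counts and clustered with scanpy 1.11.5 (2000 variable genes without the members, 30 principal components, 15 neighbours, Leiden resolution 1). A cluster took a class name when at least 4 of its 30 leading genes were markers of the class and at least 50% of the list was raised, limits set after the data were seen.

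Counts were summed per library, or per library and class with at least 20 cells in each library, and compared in edgeR 4.0.16 (its quasi-likelihood test, TMM scaling, at least 10 counts in 2 libraries and 40 in all, Benjamini-Hochberg adjusted p under 0.05). CPM of the culture and of class tests use TMM-scaled library sizes. The p-values measure the spread between 2 libraries a group. On simulated culture counts, 98.5% of 198 genes changed 4-fold were recovered among 16021 genes. The simulation held no smaller changes and no deviation shared by libraries, so it does not tell how many smaller differences were missed. Intervals for single counts are not given, since counting error is only part of the spread. Gene positions were matched by symbol to GENCODE vM21 (95 of 96 members). Named are every mitochondrial gene, the 3 nuclear members of smallest p per complex, complex II, members with a tissue form, and 2 genes of smallest p per other list; other members that passed in a class or lie on shifted regions were named after their values were seen. The members and lists were chosen with earlier results of these data known. Alternatives were other cell limits, DESeq2 1.42.0, no low-count filter, library size without mitochondrial genes, a replicate block, and each library left out.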

Additional observations from a re-analysis of the deposited data

Results flagged for a closer look

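The difference between DUX-pulsed and control cells was not the same in cardiomyocyte-like as in mesenchyme- and fibroblast-like cells for 10 members, by edgeR's test of the difference itself. For the mitochondrial genes the difference, cardiomyocyte-like minus mesenchyme- and fibroblast-like on the log2 scale, was 0.73 for mt-Co1, 0.76 for mt-Co3, 0.75 for mt-Nd4, 0.64 for mt-Nd5, 0.60 for mt-Cytb and 0.55 for mt-Atp6. For the nuclear members it was 0.85 for Ndufs1, a core iron-sulfur subunit of complex I, 0.80 for Sdha, 0.56 for Uqcrc1, a core protein of complex III, and 0.49 for Atp5b, the catalytic subunit of the ATP synthase. Ndufs1 had log2 differences of 0.45 in cardiomyocyte-like and -0.40 in mesenchyme- and fibroblast-like cells, neither of which was called. Without the Tdgf1-led cluster 20, Ndufs1, Sdha, Uqcrc1 and Atp5b did not pass, and the 6 mitochondrial genes did. Of all genes tested, 9.83% passed, and 4.06% without cluster 20.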

How the results depend on the processing

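The signs of the mitochondrial and nuclear share differences held over the other cell limits and without each library. The mitochondrial share difference was -0.395 percentage points when cells were held to 1000 or more genes and a 5% mitochondrial limit. In that fit 0 mitochondrial genes rose and 0 fell in edgeR's test, against 7.90% and 6.15% of all genes. That limit cuts on the share itself and kept a smaller part of the control than of the DUX-pulsed cells. The nuclear share difference was -0.0232 percentage points without cardiomyocyte-like cells, an alternative added after the data were seen. Nuclear members that fell in the culture numbered 2 with DESeq2, 1 with no low-count filter and 1 without cardiomyocyte-like cells. Of all genes, 12.7%, 9.45% and 9.41% fell in these fits. In the main fit 5 of the 70 members whose neighbours lay near all genes rose, against 15.6% of all genes.

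No label pairs the replicate numbers, but same-numbered libraries deviated together, with a correlation of 0.469 over 16140 genes. The main fits left the replicate number out. With the replicate block 26 nuclear members rose and 5 fell in the culture, where calls over all genes went from 15.6% to 23.6% higher and from 11.1% to 20.9% lower. In cardiomyocyte-like cells the block gave 40 and 4 nuclear and 3 and 3 mitochondrial members, higher and lower (all genes 16.7% and 16.8%). In mesenchyme- and fibroblast-like cells it gave 14 and 4 nuclear and 1 mitochondrial higher (9.45% and 5.98%). In cluster 1 it gave 8 nuclear and 7 mitochondrial lower (5.56%). In cluster 13 it gave 15 nuclear higher, 6 nuclear lower and 4 mitochondrial lower (10.5% and 8.49%).

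Leaving out each library in turn gave 7 to 12 nuclear members higher, 0 to 1 nuclear lower and 3 to 4 mitochondrial lower in the culture, while 9.11% to 18.3% of all genes were higher and 5.55% to 13.7% lower. In cardiomyocyte-like cells it gave 5 to 12 and 0 to 1 nuclear, and 0 to 3 and 0 to 2 mitochondrial members, higher and lower (all genes 5.16% to 7.0%, and 4.94% to 6.5%). In mesenchyme- and fibroblast-like cells it gave 1 to 5 and 0 to 2 nuclear, and 0 to 1 and 0 to 6 mitochondrial (0.464% to 4.95%, and 0.682% to 2.91%). In cluster 1 it gave 1 to 4 and 0 to 5 nuclear, and 0 to 2 mitochondrial lower (1.32% to 5.01%, and 0.879% to 3.27%). In cluster 13 it gave 2 to 6 nuclear higher and 0 to 1 mitochondrial lower (2.25% to 4.94%, and 1.52% to 3.42%). With the members among the clustering genes, 2 mitochondrial members were higher in cardiomyocyte-like cells, against 9.39% of all genes. In mesenchyme- and fibroblast-like cells 1 was higher, against 3.41%. The matching cluster 1 then had 1 nuclear higher, 0 nuclear lower and 0 mitochondrial lower, and 1.19% and 0.863% of all genes.

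No member called in the culture turned sign in these alternatives. Without cardiomyocyte-like cells 26 nuclear members and 1 mitochondrial gene of 94 turned, and without control 2, 18 and 1 of 95. Among the members named by the rule that turned, values were as follows. Over all deposited cells they were mt-Nd4l at 0.0024 and mt-Atp8 at 0.0018. At the 5% limit they were mt-Nd4l at 0.18, mt-Co3 at 0.014, mt-Atp8 at 0.071, Cox6b2 at -0.056 and Cox7a1 at -0.078. Without the top 5% of cells by UMIs mt-Atp8 was at 0.0028. Without cardiomyocyte-like cells the named ones were mt-Nd5 at -0.025, Sdhd at -0.029, Cox7a1 at -1.21, Cox7b at -0.17, Atp5g1 at -0.19 and Atp5g3 at -0.026. Without 1 library, mt-Nd4l ran from -0.56 to 0.37, mt-Nd5 from -0.12 to 0.31, mt-Co1 from -0.077 to 0.24, mt-Atp8 from -0.82 to 0.84, Sdhd from -0.000923 to 0.45, Cox7a1 from -0.16 to 0.31 and Atp5g1 from -0.12 to 0.41. The cause of these shifts was not tested. Cox8b, with few counts, had the widest error among the members that rose.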
